A study of Mus musculus with 8 samples.

Results

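Odorant receptors Olfr1417 to Olfr1505 were followed in ribosome footprints and in input RNA of olfactory neurons with and without Mex3a. They were taken by name, as every gene called Olfr followed by digits alone with a number within that range. The rule found 60 of the 1104 odorant receptors in the table, which holds 22553 genes, and 1044 other receptors remained for comparison. A further 5 names in the range end in -ps1 and were left out by the rule. No measured value was used to choose the members.

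Cells came from the main olfactory epithelium of mice, were freed with papain and were sorted for green fluorescence. Ngn1-GFP marks neuronal progenitors and immature sensory neurons, and OMP-GFP marks mature sensory neurons. Control mice were Mex3a flox/flox or flox/+ without a Cre driver, and carried the Ngn1-GFP transgene or OMP-ires-GFP. KO mice were Mex3a flox/flox with a Cre driver and the same reporters, except that the genotype tag of the OMP-GFP KO reads OMP-ires-Cre where its description reads OMP-ires-GFP. Every control thus carries at least 1 floxed allele, and ages are not used here. The labels list 8 footprint libraries, 2 for each of the 4 groups, and the table holds 1 column per group and assay. Every value is therefore 1 value for a group, no difference has a replicate check, and no test between groups was possible.

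Each mature olfactory sensory neuron expresses a single odorant receptor gene from a single allele. The receptor couples to the olfactory G protein, adenylyl cyclase and a cyclic nucleotide-gated channel, and it also helps to set where the axon connects in the olfactory bulb. Receptor genes lie in clusters and have their coding sequence in 1 uninterrupted exon, and relatives within a cluster can be close copies of each other. The level of a receptor in a bulk sample follows both how many neurons express it and how much RNA each of them holds. Fewer cells of a type and less RNA per cell cannot be told apart here. Whether single cells of the Ngn1-GFP sort express only a single receptor was not tested. RNA-binding proteins such as Mex3a act after transcription. Footprints set beside RNA address translation, and not the other steps that follow transcription.

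All 60 genes lie in one stretch of chromosome 19, from position 11828077 to 13919972 of the mouse build mm10 (RefSeq annotation of GRCm38.p6, counted from 1), 2.09 Mb in length. Strand was known for 56 of them, with 31 on the plus and 25 on the minus strand. The median gap between neighbours was 22.1 kb, the smallest 2.92 kb and the largest 251.0 kb. Coding lengths as listed with the counts ran from 924 to 1132 bases with a median of 945.0. The longest, listed for Olfr1480, exceeds the span of that gene in RefSeq (13529675 to 13530622). Levels per length of Olfr1480 are therefore uncertain. Synonyms in RefSeq sort 58 of the genes into named families, which follow each other along the chromosome. MOR266 opens the stretch with 4 genes from Olfr1417 to Olfr1420, and 6 genes of MOR239 come next (Olfr1423 to Olfr1428). After these lie 4 genes of MOR214 between Olfr1431 and Olfr1437, and MOR215 with Olfr1440 and Olfr1441. The 30 genes of MOR202, from Olfr1442 to Olfr1489, form the largest group. A second run of 4 MOR266 genes follows (Olfr1490, Olfr1491, Olfr1494 and Olfr1495), then Olfr1496 of MOR127. At the far end 4 genes of MOR212 (Olfr1497, Olfr1500, Olfr1501 and Olfr1504) alternate with 3 genes of MOR211 (Olfr1499, Olfr1502 and Olfr1505). Olfr1432 and Olfr1458 had no family name.

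Several of these genes are so alike that a footprint, which is only about as long as the stretch a ribosome covers, could come from more than 1 of them. The first 50 coding bases, taken from RefSeq sequence of GRCm38.p6, could be read for 46 members. Of these, 17 shared an identical run of 28 bases with another receptor in that window. They formed 13 pairs that hold 18 members in all, since the partner of Olfr1463 was Olfr1466, whose coding start is not among the 46. The sequences below are those of the pairs and small groups that recur in the results. They are written 5′ to 3′ from the start codon, and capitals mark the positions at which the genes set together do not all hold the same base.
Olfr1446: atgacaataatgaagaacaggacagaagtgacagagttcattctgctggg
Olfr1447: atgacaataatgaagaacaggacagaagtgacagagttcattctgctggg
Both lie on the minus strand, at chr19:12890526-12890575 and chr19:12901729-12901778, and are identical over all 50 bases.
Olfr1417: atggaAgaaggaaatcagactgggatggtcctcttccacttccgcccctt
Olfr1418: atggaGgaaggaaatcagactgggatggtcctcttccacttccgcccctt
This pair opens the cluster on the minus strand, at chr19:11828975-11829024 and chr19:11855902-11855951, with 49 identical positions.
Olfr1480: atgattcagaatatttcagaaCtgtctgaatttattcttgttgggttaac
Olfr1487: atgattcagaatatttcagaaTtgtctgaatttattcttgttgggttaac
Both MOR202 genes are on the plus strand, at chr19:13529675-13529724 and chr19:13619164-13619213, and share 49 positions.
Olfr1471: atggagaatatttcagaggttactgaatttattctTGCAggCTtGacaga
Olfr1472: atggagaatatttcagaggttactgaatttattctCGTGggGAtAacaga
Olfr1474: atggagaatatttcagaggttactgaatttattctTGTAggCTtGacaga
Olfr1475: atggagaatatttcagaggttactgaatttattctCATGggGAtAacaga
These 4 neighbours of MOR202 begin identically and differ at 7 positions near the end of the window. Olfr1471 (chr19:13445014-13445063) and Olfr1474 (chr19:13470972-13471021) are on the plus strand, and Olfr1472 (chr19:13454466-13454515) and Olfr1475 (chr19:13480147-13480196) on the minus strand.
Olfr1501: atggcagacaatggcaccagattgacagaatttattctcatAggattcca
Olfr1504: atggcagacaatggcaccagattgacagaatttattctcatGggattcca
These MOR212 genes are on the minus strand, at chr19:13839122-13839171 and chr19:13888159-13888208, and share 49 positions.
Olfr1499: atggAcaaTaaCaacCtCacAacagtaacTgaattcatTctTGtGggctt
Olfr1502: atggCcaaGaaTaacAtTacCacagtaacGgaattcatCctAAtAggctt
Olfr1505: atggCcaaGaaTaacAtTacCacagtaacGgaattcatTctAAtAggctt
The MOR211 genes agree at 39 positions as a group of 3. Olfr1499 is on the minus strand (chr19:13815539-13815588), and Olfr1502 (chr19:13861795-13861844) and Olfr1505 (chr19:13919022-13919071) are on the plus strand. The sources used here do not say how reads that match several genes were counted, so values of near-copies are uncertain. The 17 members with a readable start and a shared run had a median of 21.0 footprints summed over the 4 columns, against 67.0 for the 29 members without one, while their summed RNA counts had medians of 362.0 and 442.0.

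In the following, series of 4 values give the Ngn1-GFP cells first and the OMP-GFP cells last, with the control before the KO in each. The columns held 4456989, 3031489, 3576406 and 4100841 footprints, and 89327877, 27786809, 31855259 and 26946592 RNA reads. Intervals in brackets are exact 95% binomial intervals unless another kind is named. They cover counting error only, and since PCR can copy a molecule and no molecular identifiers are named, separate reads need not be separate molecules. The deleted gene had 437, 28, 16 and 5 footprints and 9645, 656, 387 and 38 RNA counts, lower in both KO columns. Summed footprints of 8 markers of mature olfactory neurons were 12500, 14100, 20100 and 22900 CPM, counts per 1000000 of the column. None of them was at 0. The 8 markers of immature neurons summed to 6220, 6550, 3860 and 3880 CPM, and 7 precursor markers to 870, 1180, 62.1 and 80.2 CPM. The sums ran as the sorts are labelled, but mature and immature neuron markers were present in every column. In scaled footprints the median mature marker had a log2 ratio of OMP-GFP over Ngn1-GFP of 0.913 in controls and 0.98 in KO columns. Omp itself had 0.15 and 0.532. The 8 sustentacular cell markers, a support cell type, summed to 5370, 671, 147 and 511 CPM, and 8 nasal gland markers to 333, 606, 54.2 and 459 CPM. These shifts between columns run alongside every comparison that follows, and their part in the results was not tested.

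Taken as a block, the 60 receptors held a nearly constant share of receptor footprints. They had 1565, 1139, 1526 and 1733 footprints, which was 0.03511% [0.0334, 0.0369], 0.03757% [0.03542, 0.03982], 0.04267% [0.04055, 0.04486] and 0.04226% [0.04029, 0.0443] of the columns. OMP-GFP cells were thus higher than Ngn1-GFP cells in both genotypes, with intervals that did not overlap. Of all receptor footprints the members took 4.217%, 4.16%, 4.434% and 4.451%, below their 5.43% of receptor genes in every column. Summed RNA counts were 17408, 4519, 6177 and 6168, or 0.01949% [0.0192, 0.01978], 0.01626% [0.01579, 0.01674], 0.01939% [0.01891, 0.01988] and 0.02289% [0.02232, 0.02347] of the columns. The RNA share was lowest in the Ngn1-GFP KO and highest in the OMP-GFP KO. Vomeronasal receptors of the Vmn1r family, which neurons of another organ use, averaged 0.011, 0.0121, 0.0026 and 0.00344 RNA CPM per gene over 205 genes, against 3.25, 2.71, 3.23 and 3.81 for the members.

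**Figure D1:**
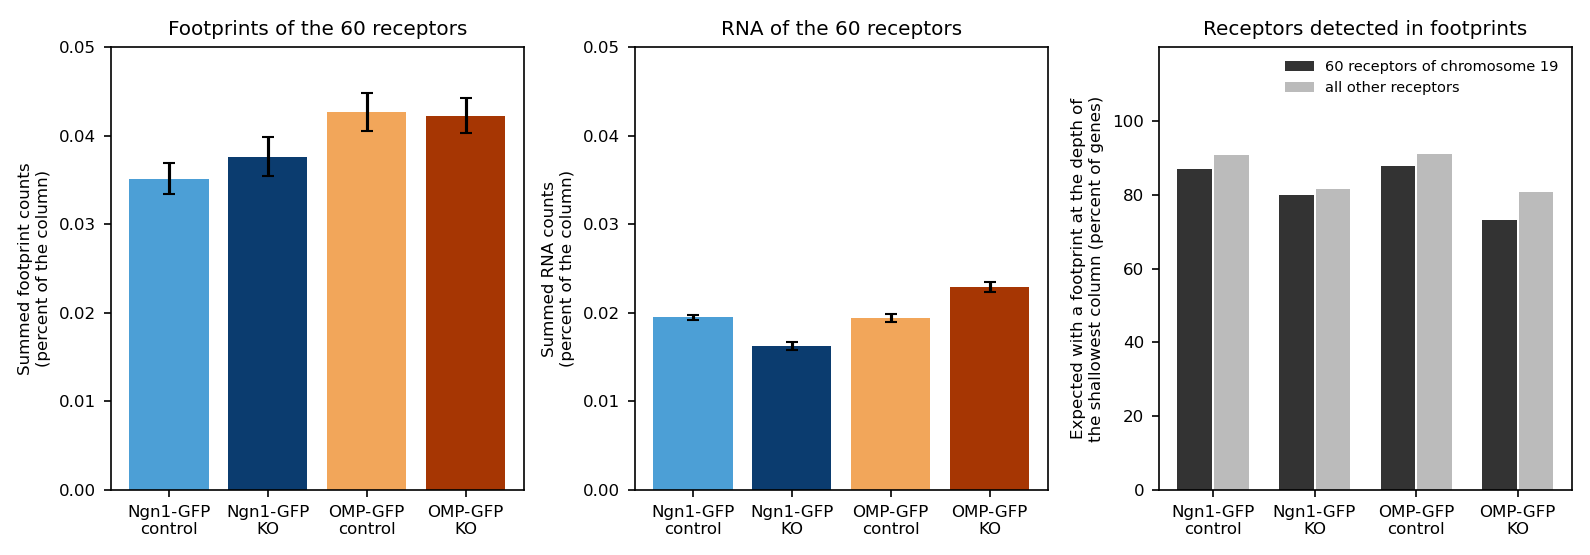
Left and middle, summed footprint and RNA counts of the 60 receptors as a percent of each column, with exact 95% binomial intervals for counting error. Right, the share of the 60 receptors and of the 1044 other receptors expected to show at least 1 footprint at the depth of the shallowest column; the lowest bar of the 60 receptors is the OMP-GFP KO at 73.1%.

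Most members were translated at some level in each population, and fewer of them were seen in the KO columns. At least 1 footprint was found for 53, 48, 53 and 44 of the 60 members. Depth differs between columns, so the number expected at 3031489 footprints, the shallowest column, was also computed and came to 52.2, 48.0, 52.7 and 43.9. In percent this was 87.0, 80, 87.8 and 73.1 for the members and 90.8, 81.6, 90.9 and 80.7 for other receptors. Detection at 1 footprint was lower in the KO than in the control in both populations, for members and other receptors alike. With at least 20 footprints required at that depth, members gave 31.7%, 30.0%, 36.4% and 34.3%. Other receptors gave 38.4%, 40.4%, 42.5% and 40.7%, and were thus higher in the Ngn1-GFP KO than in its control. RNA was found for 60, 59, 59 and 58 members, so almost every gene of the cluster was transcribed in every group.

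Footprints were found in all 4 columns for 37 members, 61.7% of them, against 69.3% of other receptors. Olfr1445 had no footprint in any column, although it had 89, 19, 7 and 0 RNA counts. An observed 0 allows up to 3 counts, which is 0.673, 0.99, 0.839 and 0.732 CPM in the footprint columns. A total of 7 members had at most 5 footprints over the 4 columns. Among them Olfr1432 had 0, 0, 1 and 0 footprints with 380, 49, 60 and 15 RNA counts, and Olfr1417 had 1, 1, 2 and 0 footprints with 278, 9, 47 and 77 RNA counts. Olfr1417, Olfr1445, Olfr1475 and Olfr1502 are near-copies of a neighbour by the 28-base run, and Olfr1432, Olfr1465 and Olfr1499 are not known to be.

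More members, and more of the other receptors, had footprints only in the control than only in the KO. In OMP-GFP cells 13 members had footprints in the control and 0 in the KO, and 4 had the reverse, which was 21.7% and 6.67% of members against 12.3% and 2.3% of other receptors. In Ngn1-GFP cells the numbers were 6 and 1, or 10% and 1.67%, against 13.4% and 2.78% of other receptors. Olfr1462 was the most abundant of these by its footprints in all columns, with 28, 26, 13 and 0 footprints. Olfr1505 had 13, 0, 6 and 0 footprints with 124, 32, 32 and 44 RNA counts, and Olfr1471 had 5, 0, 5 and 0 footprints with 282, 47, 75 and 86 RNA counts. These were the 2 members with footprints in both controls and in neither KO, and each has a near-copy in the cluster.

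The block is uneven, and a few receptors carried much of it. Footprint levels are given in reads per kilobase of coding sequence and per 1000000 reads of the column (RPKM), which can be compared between genes. The median member stood at 3.711, 3.894, 4.539 and 2.352 RPKM, below the median of other receptors at 4.574, 4.589, 5.309 and 4.551 in each column. The OMP-GFP KO had the lowest median of the members and yet the highest single level. The 8 members with the most footprints in each column held 41.0%, 47.8%, 42.3% and 55.6% of its member footprints. The top 20 of each column held 74.7%, 79.4%, 74.4% and 85.2%. The effective number of receptors, the number of equally abundant genes that would give the same Shannon entropy, was 36.0, 30.7, 36.1 and 25.8 for footprints and 48.8, 39.2, 45.3 and 38.0 for RNA. It was lower in the KO than in the control for both assays in both populations, and so it was for other receptors, at 559, 521, 549 and 504 for footprints and 737, 673, 674 and 648 for RNA. Unlike detection, the effective number was not brought to a common depth. Both Ngn1-GFP KO columns and the RNA column of the OMP-GFP KO were shallower than their controls.

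Olfr1490 of MOR266, at chr19:13654446-13655396 on the plus strand, had the highest mean footprint level, with 18.8, 26.3, 25.5 and 60.6 RPKM. The 3 other columns lay close together and the OMP-GFP KO stood far above them. Its RNA level per length and scaled to a column sum of 1000000 (TPM) was 3.71, 6.61, 7.20 and 10.8, only the 13th highest mean among the members. Olfr1440 of MOR215 (chr19:12394265-12395212, plus strand) had 26.5, 42.1, 24.2 and 31.4 RPKM and 13.3, 27.7, 12.1 and 25.3 TPM. In it both assays were higher in the KO than in the control of each population. Olfr1428 of MOR239 (chr19:12108600-12115828, minus strand) had the highest mean RNA level, with 13.6, 21.0, 22.9 and 41.1 TPM, and 18.8, 29.0, 37.9 and 20.9 footprint RPKM. Its RNA was highest in the OMP-GFP KO while its footprints were highest in the OMP-GFP control.

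Next in order came Olfr1463 of MOR202, with 20.4, 13.1, 24.6 and 26.7 RPKM, which can share reads with Olfr1466. Olfr1419 of the first MOR266 run had 13.5, 20.1, 17.9 and 26.9 RPKM. Olfr1461 of MOR202 had 14.8, 10.5, 24.4 and 22.6 RPKM, higher in both OMP-GFP columns than in both Ngn1-GFP columns. Olfr1491 varied least of the 8 members with the highest mean footprint level, with 20.3, 15.1, 17.8 and 16.8 RPKM. Olfr1495, also of MOR266, had 12.2, 5.15, 16.0 and 33.3 RPKM and was the most uneven of the 8. Among all receptors of the table Olfr1490 ranked 39 and Olfr1440 ranked 43 by mean footprint level. At the other end, Olfr1432 averaged 0.0672 RPKM, Olfr1465 0.198 and Olfr1499 0.222, the lowest levels after Olfr1445.

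**Figure D2:**
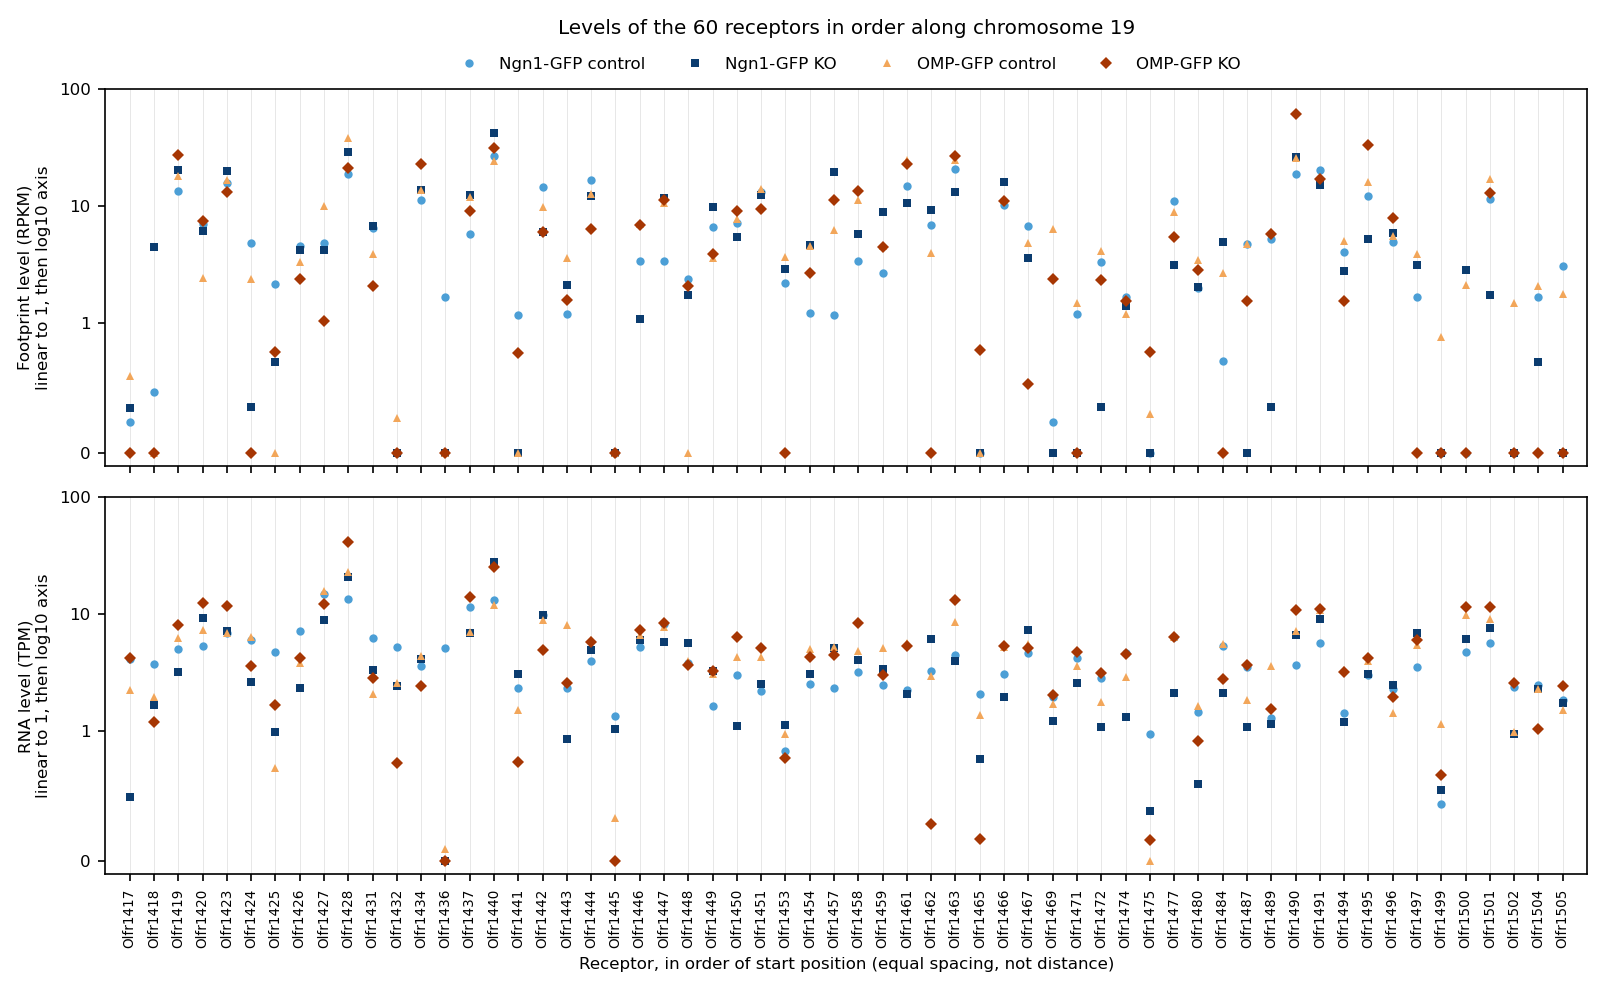
Footprint RPKM (top) and RNA TPM (bottom) of each of the 60 receptors in the 4 columns, in order along the chromosome with equal spacing; the axes are linear up to 1 and logarithmic above. Each point is 1 column without replicate spread. Olfr1490 in the OMP-GFP KO is the highest footprint level at 60.6 RPKM.

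The rank order of the members was kept in part between columns. Spearman correlations of footprint RPKM over the 60 members were 0.744 between Ngn1-GFP control and KO, 0.851 between OMP-GFP control and KO and 0.829 between the 2 controls. Footprint and RNA levels of the same group correlated at 0.393, 0.645, 0.686 and 0.622. The value in the Ngn1-GFP control was the lowest, against 0.571 for other receptors there. These are descriptions over genes, which share columns, depth and near-identical sequence and are not replicates. The RNA column of the Ngn1-GFP control also stood apart in its evenness: every member had at least 29 counts there. At the depth of the shallowest RNA column 57.6 members would have at least 20 counts, against 48.3, 53.8 and 50 in the other columns. The same held beyond the cluster, since 91.6% of other receptors would reach 20 counts there, against 83.6%, 85.7% and 84.3%.

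Deletion in Ngn1-GFP cells was examined first for single receptors. Ratios are KO over control after TMM scaling, a trimmed mean of ratios over the whole table. A gene was called different if both columns together held 20 counts or more, the ratio was at least 2-fold and the counting interval excluded no change. Of 34 members with enough footprints, 4 were called higher in the KO and 7 lower. The same rule called 6.49% of all genes higher and 10.8% lower, and 20.8% and 16.5% of other receptors, against 11.8% and 20.6% of the measured members. With at least 100 counts required in the pair, 8 members remained and 0 were called in either direction. The median log2 ratio of the members was -0.02, with 16 above and 18 below 0, beside 0.20 for other receptors and -0.002 for all genes. Summed footprints of the members were 1.12-fold higher in the KO [1.04, 1.21], and those of other receptors 1.14-fold [1.12, 1.15].

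Olfr1457 of MOR202 changed most, from 5 to 56 footprints, which was 17.2-fold higher (log2 4.11 [2.80, 5.79]). Its RNA counts were 156 and 94, a log2 ratio of 0.90. Olfr1447 went from 14 to 33 footprints (log2 1.86 [0.92, 2.88]), Olfr1459 from 11 to 25 (1.81 [0.73, 2.98]) and Olfr1437 from 24 to 35 (1.17 [0.38, 1.98]). Of these Olfr1447 can share reads with Olfr1446, which had 14 and 3 footprints, too few for a call. Lower in the KO were Olfr1501, from 48 to 5 footprints (log2 -2.64 [-4.33, -1.32]), Olfr1489, from 22 to 1 (-3.84 [-9.20, -1.21]), and Olfr1424, from 20 to 1 (-3.70 [-9.07, -1.06]). Olfr1487 went from 20 to 0, 4.33-fold lower with the 0 set to 3 counts, and the upper bound of its log2 interval was -1.68. Olfr1501 can share reads with Olfr1504, which had 7 and 2 footprints, and Olfr1487 with Olfr1480, which had 10 and 7. RNA of Olfr1501 was not lower, with 375 and 140 counts and TPM of 5.65 and 7.67, and RNA of Olfr1489 was 1.29 and 1.16 TPM. RNA of Olfr1487 and Olfr1424 was lower as well, at 3.55 and 1.10 TPM and at 6.03 and 2.65 TPM.

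RNA of the cluster was lower in the Ngn1-GFP KO. All 60 members had enough RNA counts, and 19 were called lower and 0 higher, with 40 of 60 ratios below 0 and a median log2 ratio of -0.36. Among all genes 11.9% were called lower and 4.4% higher, and among other receptors 21.5% and 6.22%. Summed RNA was 0.803-fold that of the control [0.777, 0.83], and for other receptors 0.893-fold [0.887, 0.899]. The intervals did not overlap, but they cover counting error only. Olfr1436 of MOR214 had 339 RNA counts in the control and 0 in the KO, and 2 and 0 counts in OMP-GFP cells. The former was 36.5-fold lower with the 0 set to 3 counts, and the upper bound of its log2 interval was -4.89. Its 7 footprints were all in the Ngn1-GFP control. Olfr1417 went from 278 to 9 RNA counts (log2 -3.32 [-4.46, -2.37]), Olfr1425 from 313 to 18 (-2.49 [-3.26, -1.81]) and Olfr1474 from 311 to 24 (-2.07 [-2.73, -1.47]). Without the 18 members of the pairs with a shared run of bases, 11 of 42 were called lower.

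In OMP-GFP cells few members were called between KO and control. Of 36 members with enough footprints 3 were called higher and 4 lower, against 7.12% and 8.54% of all genes and 15.7% and 15.3% of other receptors. With at least 100 counts in the pair, 2 of 11 were called higher and 0 lower. The median log2 ratio was -0.02, with 17 above and 19 below 0. Summed footprints were 1.05-fold those of the control [0.975, 1.12], and those of other receptors 1.04-fold [1.03, 1.06].

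Olfr1490 went from 88 to 240 footprints (log2 1.33 [0.97, 1.70]) and Olfr1495, at chr19:13768344-13769303 in the same MOR266 run, from 55 to 131 (1.13 [0.67, 1.61]). Their RNA moved less, from 7.20 to 10.8 TPM and from 4.0 to 4.21 TPM. Olfr1420 of the first MOR266 run went from 8 to 28 footprints (1.69 [0.52, 3.03]). The other members of the second run did not follow, since Olfr1491 had 61 and 66 footprints and Olfr1494 went from 17 to 6 (-1.62 [-3.25, -0.21]). Olfr1427 of MOR239, the third of the members in RNA level, went from 33 to 4 footprints (-3.16 [-5.12, -1.67]) while its RNA was 15.9 and 12.2 TPM. Olfr1469 went from 21 to 9 (-1.34 [-2.65, -0.15]) and Olfr1487 from 16 to 6 (-1.53 [-3.18, -0.11]). Olfr1487 was the member called lower in both populations, and Olfr1495 was the one called in opposite directions, with 52 and 15 footprints in Ngn1-GFP cells (-1.17).

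**Figure D3:**
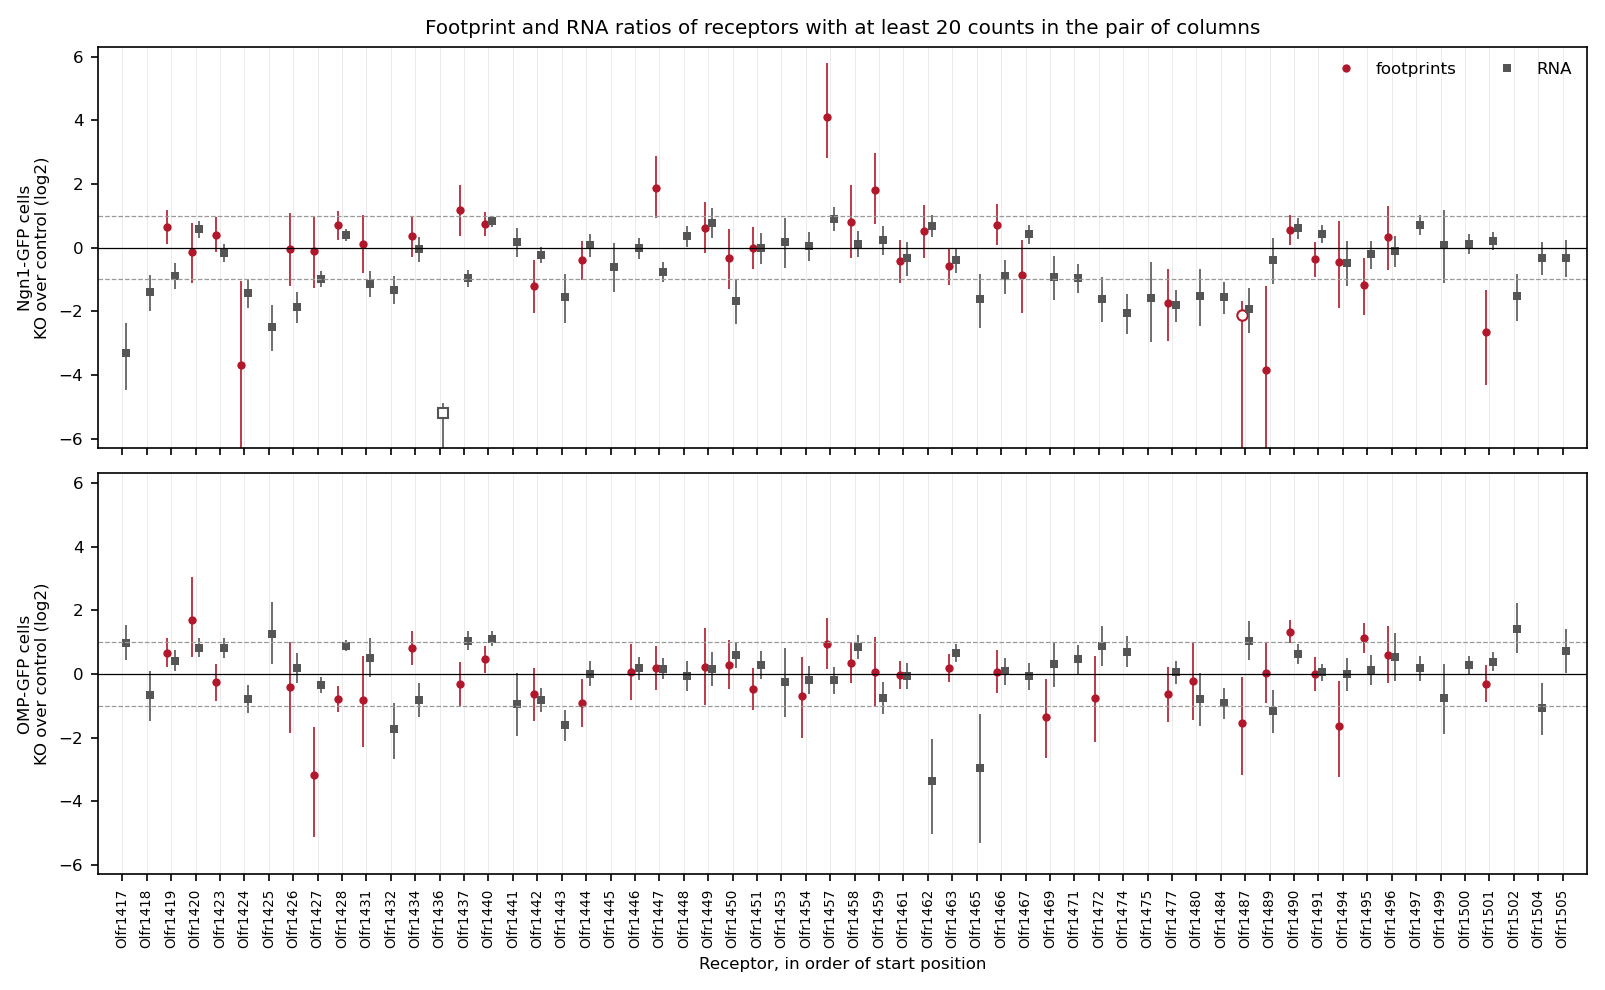
Log2 ratios of KO over control for footprints (circles) and RNA (squares) of members with 20 or more counts in the pair, in chromosomal order, for Ngn1-GFP cells (top) and OMP-GFP cells (bottom). Lines are 95% counting intervals cut at the edge of the axis, dashed lines mark 2-fold, and open symbols have a 0 in the KO set to 3 counts; Olfr1457 is the highest point at 4.11 in Ngn1-GFP footprints.

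RNA in OMP-GFP cells differed in both directions. Of 57 measured members 5 were called higher and 6 lower in the KO, against 4.4% and 3.89% of all genes and 9.6% and 9.39% of other receptors. Summed RNA was 1.2-fold higher [1.15, 1.24] and that of other receptors 1.09-fold [1.08, 1.1]. Olfr1440 went from 253 to 456 counts (log2 1.11 [0.88, 1.34]), Olfr1437 from 146 to 252 (1.05 [0.75, 1.35]), Olfr1502 from 21 to 47 (1.42 [0.65, 2.24]) and Olfr1487 from 39 to 67 (1.04 [0.45, 1.65]). Olfr1462 went from 61 to 5 RNA counts (-3.35 [-5.02, -2.05]) and lost its footprints, from 13 to 0. Olfr1465 went from 28 to 3 (-2.96 [-5.32, -1.27]), Olfr1443 from 168 to 46 (-1.61 [-2.11, -1.13]) and Olfr1432 from 60 to 15 (-1.74 [-2.66, -0.91]). Olfr1443, with 8.08 and 2.57 TPM, was the one of these with the highest RNA level in the control.

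The spread among members was wider than counting alone would give. For members with a mean of 10 to 100 footprints the log2 ratios had an SD of 1.53 in Ngn1-GFP cells and 0.905 in OMP-GFP cells, where counting gives 0.423 and 0.43. For other receptors the SDs were 1.45 and 1.29. With 1 column per group, differences between animals or sorts cannot be told apart from differences between genotypes.

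OMP-GFP cells were compared with Ngn1-GFP cells within each genotype, and the KO comparisons above share their columns with these. In controls 9 of 41 measured members had called higher footprints in OMP-GFP cells and 1 lower. All genes gave 6.11% and 17.4%, and other receptors 23.8% and 8.43%. The median log2 ratio was 0.50, with 31 of 41 above 0, beside 0.43 for other receptors, and summed footprints were 1.41-fold higher [1.31, 1.51]. Olfr1469 went from 1 to 21 footprints (4.92 [2.29, 10.3]), Olfr1457 from 5 to 21 (2.60 [1.16, 4.37]), Olfr1458 from 14 to 37 (1.93 [1.01, 2.94]) and Olfr1447 from 14 to 35 (1.85 [0.92, 2.86]). Olfr1420 alone was called lower, from 29 to 8 (-1.33 [-2.67, -0.16]). By RNA 6 of 60 members were called higher and 11 lower, where all genes gave 3.43% and 24.1% and other receptors 11.0% and 15.9%. The sums were level for RNA, 1.03-fold [0.996, 1.06], and those of other receptors were 1.1-fold [1.09, 1.11]. Olfr1443 went from 154 to 168 counts in the shallower column (log2 1.66 [1.33, 1.98]), and Olfr1489, Olfr1461 and Olfr1457 had log2 ratios of 1.35, 1.20 and 1.04. Olfr1436 went from 339 to 2 counts (-5.87 [-8.93, -4.01]), Olfr1425 from 313 to 15 (-2.85) and Olfr1431 from 415 to 43 (-1.74). Olfr1475 went from 65 to 0, 7.5-fold lower with the 0 set to 3 counts, with an upper log2 bound of -2.57.

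Among KO columns 8 of 32 measured members had called higher footprints in OMP-GFP cells and 3 lower. The shares of all genes were 11.3% and 18.4%, and those of other receptors 28.6% and 17.0%. Olfr1495 went from 15 to 131 footprints (2.92 [2.14, 3.79]), Olfr1501 from 5 to 50 (3.11 [1.79, 4.80]), Olfr1489 from 1 to 22 (4.25 [1.62, 9.62]) and Olfr1446 from 3 to 26 (2.90 [1.20, 5.27]). Olfr1462 went from 26 to 0, 10-fold lower with the 0 set to 3 counts, with an upper log2 bound of -2.92. Olfr1431 went from 19 to 8 (-1.46) and Olfr1449 from 28 to 15 (-1.11). RNA was called higher for 20 of 56 members and lower for 3, where all genes gave 4.77% and 16.4% and other receptors 19.3% and 6.64%. Summed RNA was 1.53-fold higher [1.47, 1.59], and that of other receptors 1.34-fold [1.33, 1.35]. Olfr1417 went from 9 to 77 RNA counts (3.26), Olfr1450 from 21 to 118 (2.65), Olfr1474 from 24 to 83 (1.95) and Olfr1463 from 72 to 237 (1.88). Lower were Olfr1462, from 110 to 5 (-4.30), Olfr1441, from 57 to 14 (-1.86), and Olfr1432, from 49 to 15 (-1.55). Scaling by library size alone lowered the median footprint ratio of all genes by 0.215 in controls and 0.226 in KO columns on the log2 scale, and the median RNA ratio of KO columns by 0.117.

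Footprints per RNA read set translation beside transcript abundance. The quantity is the share of footprints in a column divided by the share of RNA, so 1 is the average over all reads. Summed over the 60 members it was 1.8, 2.31, 2.2 and 1.85, and over other receptors 1.93, 2.26, 2.09 and 1.92. Genes other than receptors gave 0.996, 0.995, 0.995 and 0.995. Receptors of the cluster thus had about as many footprints per RNA read as other receptors, and more than the rest of the table, in every column. The Ngn1-GFP KO was the highest column for both, followed by the OMP-GFP control.

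Single values need at least 20 counts in both assays, which 28, 18, 25 and 25 members had, so they describe the more translated members. Among the 13 members that met this in all 4 columns, Olfr1461 was highest on average, with ratios of 8.34, 7.24, 6.19 and 6.02. Olfr1490 had 6.47, 5.74, 5.09 and 7.92, Olfr1434 of MOR214 had 3.93, 4.77, 4.45 and 13.0, and Olfr1451 of MOR202 had 7.52, 6.97, 4.6 and 2.6. The lowest 4 were Olfr1491, with 4.54, 2.41, 2.33 and 2.16, Olfr1440, with 2.53, 2.19, 2.89 and 1.76, Olfr1428, with 1.76, 1.99, 2.38 and 0.72, and Olfr1437, with 0.636, 2.57, 2.44 and 0.913. Olfr1440 and Olfr1428 had the highest RNA levels of the cluster.

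Changes of this ratio between KO and control were measurable for few members, and their intervals are approximate. In Ngn1-GFP cells 3 of 15 were called higher and 0 lower, against 4.2% and 6.29% of all genes and 18.1% and 7.29% of other receptors: Olfr1437 (log2 2.01 [1.22, 2.81]), Olfr1466 (1.51 [0.71, 2.30]) and Olfr1419 (1.41 [0.78, 2.04]). In OMP-GFP cells 3 of 23 were called higher, Olfr1434 (1.54 [0.81, 2.28]), Olfr1489 (1.12 [0.04, 2.20]) and Olfr1457 (1.08 [0.23, 1.94]). A further 3 were called lower, Olfr1428 (-1.73 [-2.16, -1.29]), Olfr1437 (-1.42 [-2.14, -0.70]) and Olfr1423 (-1.12 [-1.76, -0.49]). All genes gave 3.43% higher and 6.0% lower there, and other receptors 7.59% and 10.4%. Olfr1466 and Olfr1423 are named because the counts are small, after their values were seen. Between populations, controls gave 2 of 20 higher in OMP-GFP cells, Olfr1437 (1.94 [1.17, 2.71]) and Olfr1427 (1.13 [0.31, 1.96]), and 1 lower, Olfr1489 (-1.13 [-2.11, -0.14]), against 2.81% and 7.4% of all genes and 13.7% and 12% of other receptors. In KO columns 1 of 15 was higher, Olfr1434 (1.45 [0.68, 2.21]), and 6 were lower, the lowest Olfr1466 (-2.04 [-2.86, -1.21]), where all genes gave 4.46% and 10.5% and other receptors 8.0% and 23.4%. Olfr1437 was called in opposite directions in the KO comparisons of the 2 populations, with 24 and 35 footprints on 757 and 125 RNA counts in Ngn1-GFP cells and 40 and 35 footprints on 146 and 252 RNA counts in OMP-GFP cells.

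Summed footprints per RNA read ranged widely between families that lie close together on the chromosome. The second run of MOR266 had summed ratios of 5.09, 3.58, 3.63 and 5.44, above the sum of the cluster in each column. Olfr1496, the single MOR127 gene beside it, had 2.73, 3.39, 5.64 and 5.66, from 17 to 31 footprints a column. The first run of the same family had 1.52, 3.18, 1.77 and 1.94. MOR212, which begins within a few genes of the second run, had 1.14, 0.526, 1.34 and 0.604, below the cluster in each column. MOR202, the largest family, had 2.04, 2.61, 2.19 and 1.87, close to all other receptors.

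Summed MOR212 footprints were below the control in both KO columns, by less than 2-fold, while its summed RNA was slightly above. Footprints went from 62 to 24 in Ngn1-GFP cells (log2 -0.75 [-1.49, -0.05]) and from 84 to 50 in OMP-GFP cells (-0.87 [-1.40, -0.35]), with RNA ratios of 0.25 [0.08, 0.41] and 0.22 [0.04, 0.39]. The members differed between the 2 populations. In Ngn1-GFP cells the lower sum rested on Olfr1501, and without it the log2 ratio was 1.06, higher in the KO. In OMP-GFP cells no member was called: Olfr1501 had 57 and 50 footprints, and the other 3 genes went to 0, Olfr1497 from 13, Olfr1500 from 7 and Olfr1504 from 7, each below 20 counts, while Olfr1497 kept 109 and Olfr1500 kept 206 RNA counts. Without Olfr1501 the log2 footprint ratio in OMP-GFP cells was -3.29, with the 0 set to 3 counts. Olfr1501 and Olfr1504 can share reads, so the ratios without Olfr1501 are uncertain in both populations.

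MOR211 had 13, 0, 14 and 0 footprints with 313, 60, 77 and 103 RNA counts. Both KO columns were thus empty, but the pairs hold fewer than the 20 counts a call needs. The OMP-GFP KO held more RNA counts than its control. All 13 footprints of the Ngn1-GFP control were from Olfr1505, and the 14 of the OMP-GFP control were 6 from Olfr1505, 5 from Olfr1502 and 3 from Olfr1499. MOR239 had 235 and 147 footprints in OMP-GFP control and KO (log2 -0.80 [-1.10, -0.49]) with 1179 and 1337 RNA counts (0.44 [0.33, 0.56]), and its footprints per RNA read were 1.21, 1.95, 1.78 and 0.722. In Ngn1-GFP cells its footprints were 212 and 166 (0.27 [-0.03, 0.57]) and its RNA was lower (-0.54 [-0.66, -0.43]). The second MOR266 run had 221 and 443 footprints in OMP-GFP control and KO (0.88 [0.65, 1.12]) with 542 and 535 RNA counts (0.24 [0.07, 0.42]). Without Olfr1490 the log2 footprint ratio of this run was 0.49. In Ngn1-GFP cells it had 237 and 144 (-0.10 [-0.41, 0.21]).

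**Figure D4:**
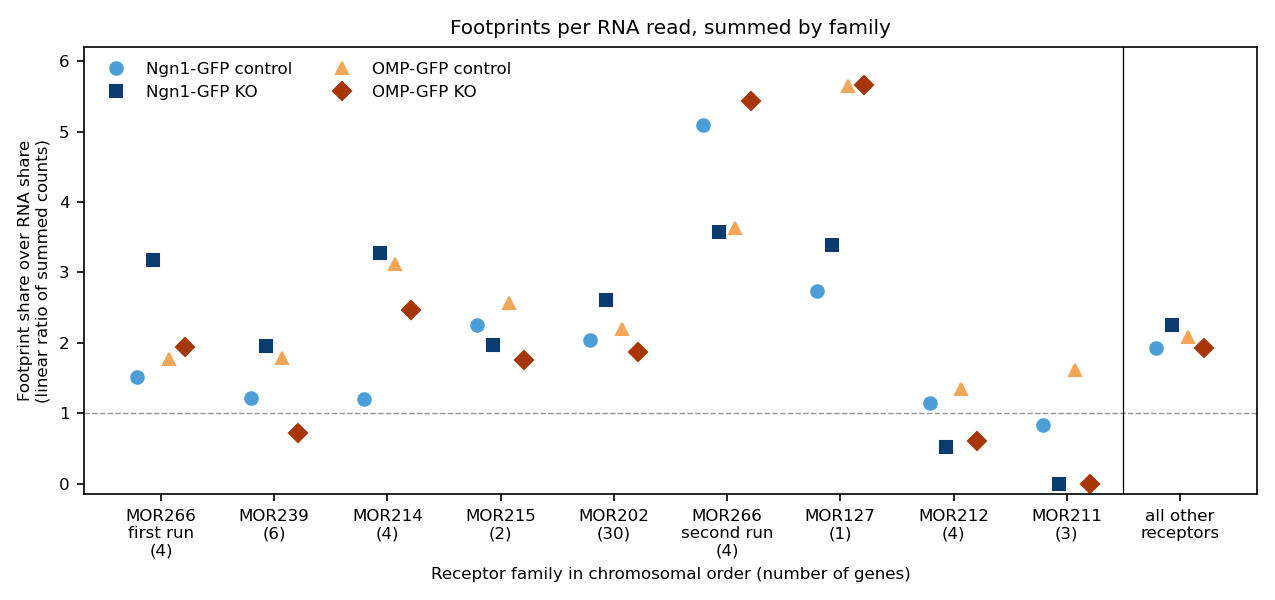
Share of footprints over share of RNA, from summed counts, for each receptor family in chromosomal order and for all other receptors, in the 4 columns. Each point is 1 column without replicate spread and the dashed line at 1 is the average over all reads; the second MOR266 run lies between 3.58 and 5.44 and MOR211 is at 0 in both KO columns. Families differ in the near-copies they hold, and the effect of these on the ratios was not tested.

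Few genes that act around the receptors were called between genotypes. Of 40 listed genes for receptor enhancers, choice, export and signalling, 39 had enough footprints, and 0 were called in either direction in both KO comparisons. Shares of all genes called were 6.49% higher and 10.8% lower in Ngn1-GFP cells, and 7.12% and 8.54% in OMP-GFP cells. RNA gave 0 higher and 1 lower in Ngn1-GFP cells, the heat shock gene Hspa1a with 1334 and 76 counts, and 0 in OMP-GFP cells. By RNA, all genes gave 4.4% higher and 11.9% lower in Ngn1-GFP cells, and 4.4% and 3.89% in OMP-GFP cells. Between populations more were called: in controls 6 of 39 were higher and 2 lower in footprints of OMP-GFP cells, where all genes gave 6.11% and 17.4%. Those higher included Rtp2, a receptor transporter (log2 1.06 [0.98, 1.13]), and Cnga4, a channel subunit (1.13 [1.06, 1.19]), and Lhx2, a factor that binds receptor enhancers, was lower (-1.75 [-1.92, -1.59]). The KO columns gave 4 higher and 3 lower of 39, where all genes gave 11.3% and 18.4%.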

How the data were processed

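FastQC, cutadapt, STAR and the mm10 build are named in the submitters' processing notes, without versions. Per the file headers, the deposited table gives footprint counts and RNA counts over coding sequences, coding length, footprint RPKM, RNA TPM and the authors' translational efficiency, a ratio. RPKM and TPM were recomputed from the counts with no difference beyond rounding. The labels list 2 footprint libraries per group. The sources used here do not say how they became 1 column.

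The members, the gene lists and the rules were chosen with earlier results of these data known. Named members are the 8 with the highest and the 3 with the lowest measured mean RPKM, up to 4 called per direction and comparison, the extremes of footprints per RNA read, and members with no count in an assay or with opposite calls. Counts were scaled by TMM (edgeR 4.0.16, R 4.3.3), with genes kept by filterByExpr at a minimum count of 10 (13479 for footprints, 16388 for RNA). Ratios need 20 counts in the pair, carry exact conditional binomial 95% intervals, and are called at 2-fold with an interval that excludes no change. A 0 was set to 3 counts for the ratio but not for its interval, and the text names that setting where it applies. Ratios used Python 3.11.15 with scipy 1.17.1, and plots matplotlib 3.10.9. The calculation was tested on simulated counts. Symbols, positions, families and sequences are from RefSeq (GRCm38.p6), where all 60 members were found by symbol. The Vmn1r genes were added after the data were seen. The same ratios were also computed with library size alone, size factors of DESeq2 1.42.0, other count minimums and sums without the most abundant member.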

Additional observations from a re-analysis of the deposited data

Results flagged for a closer look

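A few members had called differences between KO and control that ran in opposite directions in the 2 populations. The difference between the populations was not tested, since each group has 1 column. Olfr1495 footprints had a log2 ratio of -1.17 in Ngn1-GFP cells, from 52 to 15, and of 1.13 in OMP-GFP cells, from 55 to 131. Olfr1425 RNA was lower in the Ngn1-GFP KO (-2.49, 313 to 18 counts) and higher in the OMP-GFP KO (1.26, 15 to 30 counts). Olfr1487 RNA had ratios of -1.93 (236 to 20) and 1.04 (39 to 67), while its footprints were lower in both KO columns. Olfr1502 RNA had ratios of -1.52 (160 to 18) and 1.42 (21 to 47). Olfr1437 had footprints per RNA read that were higher in the Ngn1-GFP KO (2.01) and lower in the OMP-GFP KO (-1.42). Olfr1487 and Olfr1502 have near-copies in the cluster, so reads of both may be shared with Olfr1480 and Olfr1505.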

How the results depend on the processing

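No paired analysis was possible because the table has 1 column per group and not per library, and leaving out a replicate could not be done for the same reason. A repeat without members at least 90% identical in protein to another receptor was not run, since protein sequences are not used here. Called counts depend on the count minimum because fewer members are measured. At 100 counts in the pair, footprints gave 0 higher and 0 lower of 8 in Ngn1-GFP cells, 0 lower of 11 in OMP-GFP cells, 1 higher and 0 lower of 12 between controls, and 4 higher and 0 lower of 11 between KO columns. At 50 counts, a minimum chosen after seeing the data, they gave 2 higher and 4 lower of 20 in Ngn1-GFP cells, 0 lower of 22 in OMP-GFP cells, 4 higher and 0 lower of 20 between controls, and 0 lower of 19 between KO columns. RNA at 100 counts gave 3 higher and 2 lower of 41 in OMP-GFP cells and 1 lower of 37 between KO columns. Without members that share a run of 28 bases, also chosen after seeing the data, 5 members were higher in footprints between KO columns. In RNA 11 were then lower in Ngn1-GFP cells, 3 higher in OMP-GFP cells, 5 lower between controls and 12 higher between KO columns. Where only 1 direction is given, the other count stayed within 1.5 times of the main one. Shares of all genes or other receptors at these settings are not given, so these counts are not set against a background. Library size alone gave a median footprint log2 ratio of 0.287 between controls.

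Without its most abundant member the cluster held 0.0326%, 0.03358%, 0.03909% and 0.03641% of footprints and 0.01839%, 0.01444%, 0.01789% and 0.02015% of RNA. The log2 ratio of RNA shares was then -0.348 in Ngn1-GFP and 0.172 in OMP-GFP cells. With all receptors as denominator, footprint log2 ratios were -0.0195 for the Ngn1-GFP KO and 0.0724 between controls. RNA log2 ratios were -0.147 and 0.131 for the KO of the populations, -0.0949 between controls and 0.183 between KO columns. At least 20 footprints were found for 28, 18, 25 and 25 members. With 50 counts in both assays the median log2 of footprints per RNA read in the Ngn1-GFP control was 2.27 over 12 members. The other 141 alternative values for these results were the same in direction and within counting error, or within 1.5 times for counts. With median counts of 15.5, 11, 15 and 9.0 footprints per member, depth limits what single receptors can show.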
